A study of Rattus norvegicus with 29 samples.

Results

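miR-124 and miR-9, microRNAs (miRNAs) of neurons, were followed in plasma of 29 rats. The members were the lines of the deposited miRNA count table named for miR-124, miR-9a, miR-9b or miR-9c, either arm, which gave 6 of 754 lines: rno-miR-124-3p, rno-miR-124-5p, rno-miR-9a-3p, rno-miR-9a-5p, rno-miR-9b-3p and rno-miR-9b-5p. No line was named for miR-9c. All 6 passed the filter on low counts, which left 751 miRNAs for testing. The first 4 are described in full, and the 2 arms of miR-9b, which were near the limit of detection, more briefly.

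Small RNA was sequenced from plasma of adult male Sprague-Dawley rats, taken from the tail vein under isoflurane 48 h after surgery. The rats came from UEF (n = 12), Monash (n = 8) and UCLA (n = 9), and each library was 1 rat. Of these, 10 were sham-operated experimental controls (sham), which had the surgery without the impact, and 19 had a traumatic brain injury (TBI) by lateral fluid percussion. The injured rats were divided by a video-EEG recording made months after the plasma was drawn into 10 without epilepsy (TBI-) and 9 with epilepsy (TBI+). There were 4, 4 and 4 rats (sham, TBI- and TBI+) at UEF, 3, 3 and 2 at Monash and 3, 3 and 3 at UCLA.

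A miRNA gene is transcribed into a hairpin, and the enzymes Drosha and Dicer cut from it a short duplex whose strands are named the 5p and 3p arm. A strand loaded into an Argonaute protein pairs, mainly through its seed, with sites in messenger RNAs and represses them. miR-124, whose 3p arm is the main product, is expressed widely by neurons and lowers messages that belong to other cell types. miR-9 is expressed in neural progenitors and neurons, and both of its arms act on transcription factors and chromatin regulators of neuronal differentiation. In plasma such miRNAs are read as candidate markers of damage to neurons. Plasma is a bulk sample: more releasing cells, more RNA per cell and slower clearance cannot be told apart.

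The mature miR-9 sequences are printed because they show how the arms differ and why the miR-9b lines stand beside miR-9a. They were taken from RefSeq (rat build GRCr8), 5′ to 3′, with the seed, bases 2 to 8, in capitals. RefSeq matched 674 of the 754 lines and 4 of the 6 members, and miR-124 was not among them.
rno-miR-9a-5p: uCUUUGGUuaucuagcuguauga
rno-miR-9a-3p: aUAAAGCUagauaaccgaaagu
rno-miR-9b-5p: uUCGGUUAucuagcuuuau
rno-miR-9b-3p: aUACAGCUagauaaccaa
The 4 seeds differed, and 0 other matched lines of the table carried any of them. miR-9a-5p (23 bases) and miR-9a-3p (22 bases) thus carry different seeds although they come from the same hairpins. The miR-9b sequences, of 19 and 18 bases, were the reverse complement of parts of the miR-9a arms: miR-9b-5p of bases 1 to 19 of miR-9a-3p, and miR-9b-3p of bases 4 to 21 of miR-9a-5p.

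Each miR-9a arm had 1 sequence from 3 loci, so the counts cannot say which gene a read came from. The hairpins are shown with both arms in capitals, since the arms are the parts the table counts and the loop and flanks are what distinguishes the loci. Mir9-1 is at chr2:175974971-175975059, Mir9-2 at chr2:15933292-15933378 and Mir9-3 at chr1:142849400-142849489, all on the plus strand of GRCr8.
Mir9-1: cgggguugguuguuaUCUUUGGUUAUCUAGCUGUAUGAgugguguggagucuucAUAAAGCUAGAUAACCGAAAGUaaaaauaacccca
Mir9-2: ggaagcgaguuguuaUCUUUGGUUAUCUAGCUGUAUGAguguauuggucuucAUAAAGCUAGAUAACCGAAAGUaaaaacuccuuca
Mir9-3: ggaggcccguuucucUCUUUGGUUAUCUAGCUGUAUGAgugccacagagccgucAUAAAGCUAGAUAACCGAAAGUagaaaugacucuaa
miR-9b-5p belongs to Mir3597-1, Mir3597-2 and Mir3597-3, annotated on the minus strand of the same 3 places. For miR-9b-3p only Mir3597-2 and Mir3597-3 were given (2 loci).

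The miRNA counts summed to 1162307 to 5223469 per rat (median 2713557), and the 6 members together took 0.00498% to 0.0587% of them (median 0.0234%). UEF sham 3 stood apart in composition, with the liver miRNA miR-122-5p at 55.1% of its counts and a TMM factor of 0.333, which raises all of its CPM values. When the rats were clustered on 584 other miRNAs that reached 10 counts in all rats, 9 libraries formed branches of their own: all 3 sham and all 3 TBI- rats of Monash and all 3 TBI+ rats of UCLA. Their profiles had a median Spearman rho of 0.928 with each other, 0.864 with the remaining 20 libraries, and the 20 had 0.906 among themselves. They are 9 neighbouring columns of the table, no label names them as a batch, and the grouping did not appear when only the 273 miRNAs with at least 50 counts were clustered. With these, and with the 188 miRNAs of at least 100 counts, a different 9 libraries lay outside the largest branch. They were 3 sham, 3 TBI- and 2 TBI+ rats of UCLA and UEF sham 4. Below, the 9 libraries that stand apart are always those of the first clustering. Calls of the members and of the marker lists over all rats are also given without the libraries that stand apart, an alternative chosen after seeing the data. At Monash all sham rats are among them, so no Monash value of TBI against sham can be had without them. TBI+ against TBI- at Monash and at UCLA sets these libraries against others, and there outcome and library set cannot be told apart.

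All 4 main miRNAs were measured in every rat, at low to middle abundance. miR-9a-3p, the arm that derives from the 3′ side of the hairpin, was the most abundant in this set, with a median of 91.0 CPM (counts scaled to library size with TMM factors) and rank 200 of 754 lines. miR-9a-5p followed with 67.1 CPM (rank 249), miR-124-3p with 38.9 CPM (rank 338) and miR-124-5p with 18.0 CPM (rank 505). CPM here counts reads per mature arm with no correction for ligation bias, so the order between miRNAs is that of reads. miR-9b-5p (6.98 CPM, rank 694) and miR-9b-3p (4.92 CPM, rank 729) had at least 10 counts in 22 and 19 of the 29 rats.

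The SD between rats of the same site and condition was above an estimate of counting error for all 6, which was not tested. The estimate takes each count as a separate molecule. The within-group SD on the log2 scale (20 degrees of freedom) was 0.388 for miR-124-3p, 0.455 for miR-124-5p, 0.479 for miR-9a-3p and 0.416 for miR-9a-5p. Counting error alone would give 0.157, 0.229, 0.109 and 0.123 in the same order. For miR-9b-3p and miR-9b-5p the within-group SD was 1.21 and 0.839, against 0.716 and 0.612 from counting. By this estimate counting made up less of the spread for the 4 main miRNAs than for miR-9b, and differences between rats and between library preparations cannot be told apart.

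**Figure D1:**
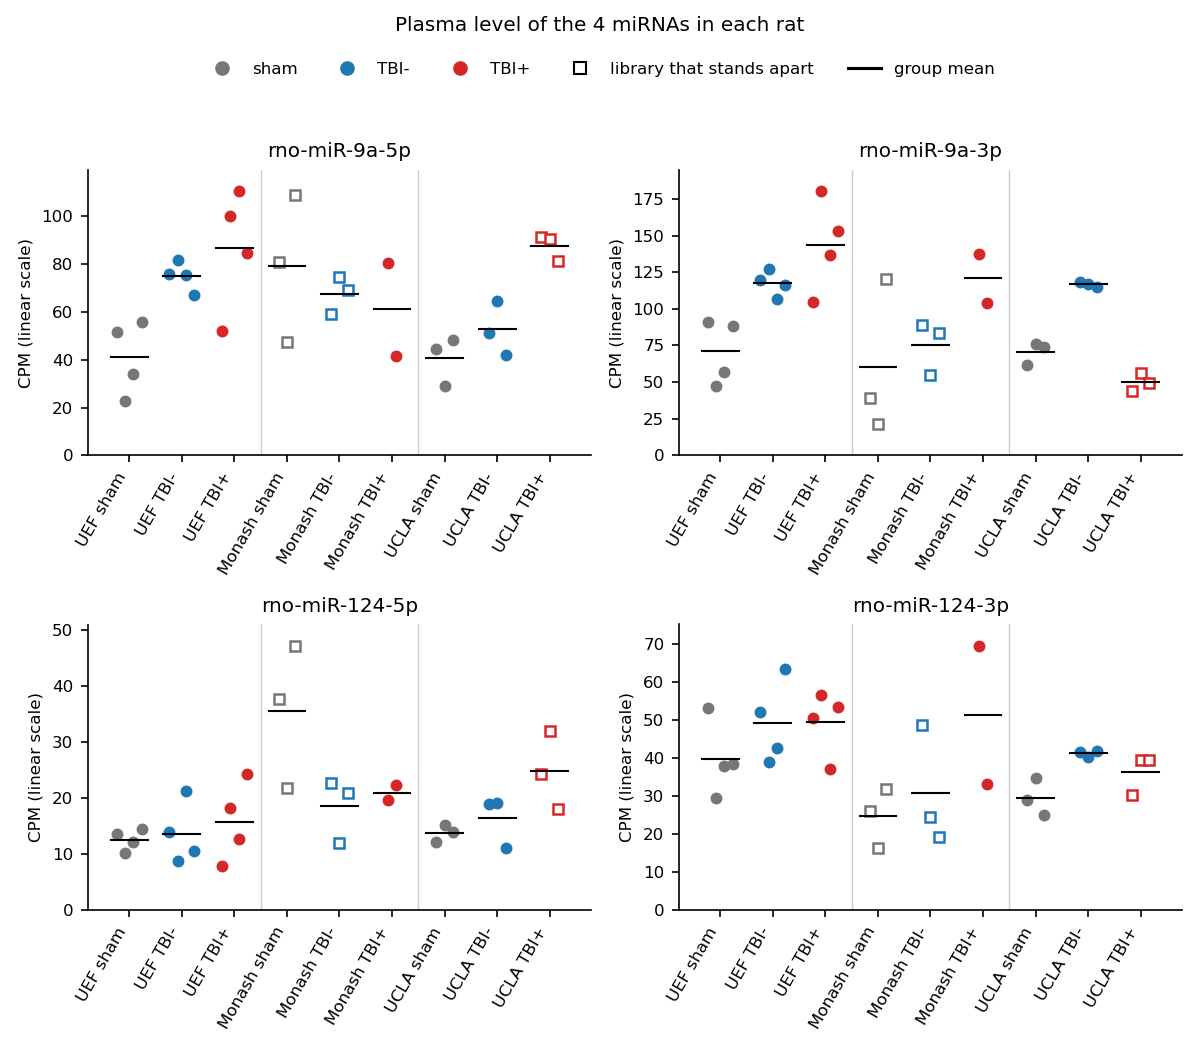
CPM (linear axis) of the 4 miRNAs in each of the 29 rats by site and condition; points are rats, open squares the 9 libraries that stand apart, and lines the group means. For miR-9a-3p all 8 UEF TBI rats lay above the 4 UEF sham rats, and the 3 UCLA TBI+ rats (44.2 to 56.4 CPM) lay below the 3 UCLA TBI- rats (114.6 to 118 CPM). How many of all miRNAs separate in these ways was not counted.

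Injured rats were first compared with sham rats. Both arms of miR-9a and the 3p arm of miR-124 had higher estimates after TBI, by 1.35- to 1.53-fold, and the 5p arm of miR-124 did not. None of the 6 members passed an adjusted p of 0.05 over the 751 miRNAs in edgeR, in a comparison in which 9 miRNAs (1.2%) were called. By comparison, the median log2 fold change of all miRNAs was 0.03.

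miR-9a-5p, which acts through the seed CUUUGGU, ranged from 22.8 CPM (median 47.8) to 108.9 CPM in sham rats and from 41.5 CPM (median 75.3) to 110.4 CPM in TBI rats. The groups overlapped over most of their range, and the sham maximum was Monash sham 3. The log2 fold change was 0.54 (SE 0.20, 95% interval 0.14 to 0.95, edgeR adjusted p = 0.220), rank 34 of 751 by p. miR-9a-3p ranged from 21.2 to 120.3 CPM in sham (median 67.6) and from 44.2 to 180.3 CPM in TBI rats (median 114.6). Its low injured values were the 3 UCLA TBI+ rats and Monash TBI- 2. The log2 fold change was 0.61 (95% interval 0.15 to 1.07), rank 36.

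miR-124-3p, the main arm of miR-124, ranged from 16.2 to 53.2 CPM in sham (median 30.5) and from 19.0 to 69.5 CPM in TBI rats (median 41.4). The groups overlapped, and the lowest 2 injured values were at Monash, where sham rats were also low. The log2 fold change was 0.43 (95% interval 0.08 to 0.79), rank 49. miR-124-5p ranged from 10.2 to 47.2 CPM in sham (median 14.1) and from 7.78 to 31.96 CPM in TBI rats (median 18.9). Its log2 fold change was −0.01 (SE 0.22, 95% interval −0.46 to 0.45, edgeR adjusted p = 0.991), so a change of up to about the size seen for the other arm lies inside its interval. An exact permutation test of the mean log2 CPM with rats exchanged within site gave two-sided, unadjusted p of 0.00632 for miR-9a-5p, 0.00665 for miR-9a-3p, 0.0133 for miR-124-3p and 0.890 for miR-124-5p. It was run for the members only. In edgeR, 84 of the 751 miRNAs had an unadjusted p below 0.05 in this comparison.

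miR-9b-3p and miR-9b-5p had too few reads for a narrow interval. Their log2 fold changes were 0.13 (95% interval −1.06 to 1.32) and −0.03 (−1.01 to 0.95). miR-9b-3p had 0 counts in 5 rats and miR-9b-5p in 3, which allows up to 1.18 to 2.44 CPM and 1.05 to 1.41 CPM in those rats (3 counts each, counting error only).

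Without the 9 libraries that stand apart, 7 sham and 13 TBI rats remained, and both arms of miR-9a passed the threshold. No Monash sham rat remained, so with site in the model the Monash TBI+ rats do not inform the TBI estimate. For miR-9a-3p the low injured rats (UCLA TBI+ and Monash TBI- 2) were left out. Its highest and lowest sham rats, Monash sham 3 and Monash sham 2, were left out too. For miR-9a-5p the highest sham rat, Monash sham 3, and the high UCLA TBI+ rats were left out. The log2 fold change was 0.82 for miR-9a-3p (SE 0.17, 95% interval 0.46 to 1.17, edgeR adjusted p = 0.0133), a 1.76-fold rise. For miR-9a-5p it was 0.77 (SE 0.22, 95% interval 0.32 to 1.22, edgeR adjusted p = 0.0480), a 1.70-fold rise. miR-124-3p was at 0.29 (95% interval −0.09 to 0.67, edgeR adjusted p = 0.459) and miR-124-5p at 0.19 (0.763). In this comparison 30 of 754 miRNAs (3.98%) were called, 10 of them higher in TBI. With all 29 rats and the 9 libraries as a model term, the estimate was 0.61 for miR-9a-3p (edgeR adjusted p = 0.106), 0.51 for miR-9a-5p (0.159) and 0.44 for miR-124-3p (0.177), none of which passed.

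**Figure D2:**
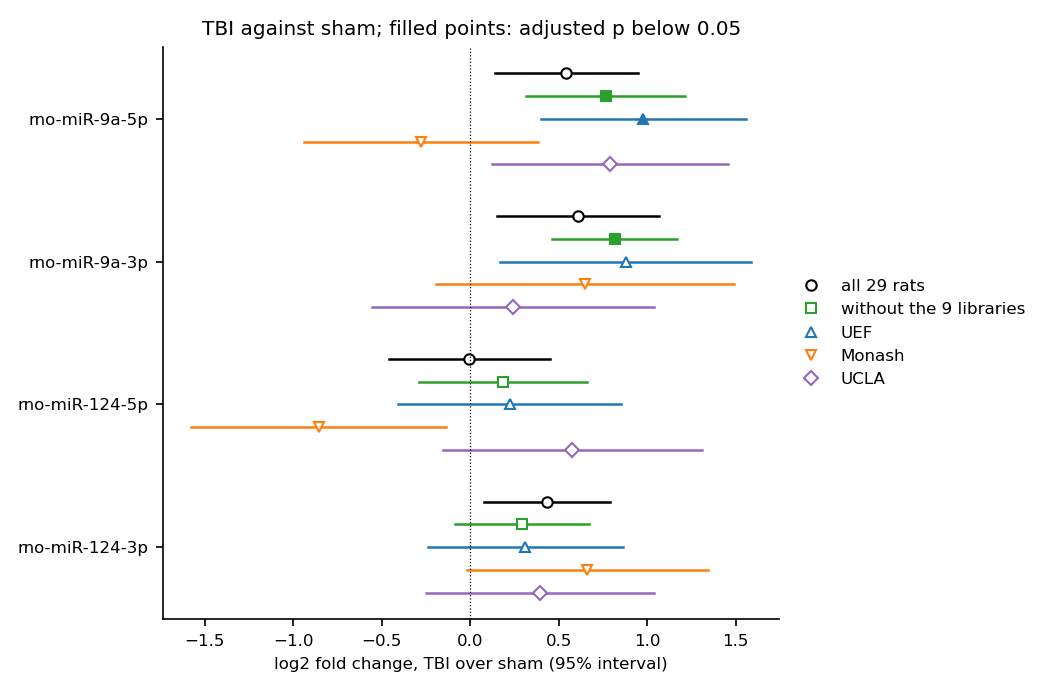
Log2 fold change of TBI over sham (x axis) with its 95% interval for the 4 miRNAs, in all 29 rats, without the 9 libraries that stand apart, and at each site; filled symbols have an adjusted p below 0.05. Filled symbols are found for both miR-9a arms without the 9 libraries and for miR-9a-5p at UEF.

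Within sites, all 4 main miRNAs had positive TBI estimates at UEF and at UCLA, and at Monash the 3p arms had positive and the 5p arms negative ones. At UEF, miR-9a-5p was 51.4, 22.8, 33.9 and 55.9 CPM in sham rats. It was 75.9, 81.5, 75.3 and 67.1 CPM in TBI- rats and 52.1, 100.02, 110.4 and 84.5 CPM in TBI+ rats. A single injured rat, UEF TBI+ 1, lay within the sham range. The log2 fold change at UEF was 0.98 (SE 0.28, 95% interval 0.40 to 1.56, edgeR adjusted p = 0.0448), where 29 miRNAs (3.86%) were called. This call was near the threshold: it was lost with library totals in place of TMM (adjusted p = 0.0509) and when 1 rat was left out in 10 of 29 cases, with adjusted p up to 0.137 without UEF sham 2 and 0.144 without UEF sham 3. The other 8 were UEF TBI- 1 and 3, UEF TBI+ 2, 3 and 4, Monash sham 1, Monash TBI- 1 and UCLA TBI- 2 (0.0505 to 0.0883). At UEF 3 of 3 liver miRNAs were also called lower (median log2 fold change −2.79) and 1 of 5 red cell miRNAs higher (median 0.96), and their part in the value was not tested.

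miR-9a-3p at UEF was 91.0, 47.6, 56.9 and 88.3 CPM in sham rats. It was 119.5, 127.4, 106.7 and 116.4 CPM in TBI- rats and 104.9, 180.3, 136.5 and 153.4 CPM in TBI+ rats. Sham and injured rats did not overlap, and the log2 fold change was 0.88 (95% interval 0.17 to 1.59, edgeR adjusted p = 0.180). The share of all miRNAs without overlap at UEF was not counted.

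At Monash, where 0 of 751 miRNAs (0%) were called in edgeR and 54 had unadjusted p below 0.05, miR-9a-5p was 80.6, 47.6 and 108.9 CPM in sham and 41.5 to 80.5 CPM in TBI rats. The groups overlapped, with 2 of the 3 sham rats at or above the highest injured rat (log2 fold change −0.28, 95% interval −0.94 to 0.38). miR-124-5p, the lesser arm of miR-124, was 37.6, 21.7 and 47.2 CPM in sham and 12.0 to 22.7 CPM in TBI rats there (−0.86, SE 0.35, edgeR adjusted p = 0.518). miR-9a-3p at Monash was at 0.65 (95% interval −0.19 to 1.49) and miR-124-3p at 0.66 (−0.02 to 1.34).

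At UCLA, with 2 miRNAs (0.266%) called, miR-9a-5p was 44.5, 29.01 and 48.0 CPM in sham and 42.1 to 91.5 CPM in TBI rats. Its log2 fold change was 0.79 (95% interval 0.13 to 1.45, edgeR adjusted p = 0.353). miR-124-3p was 28.96, 34.7 and 24.8 CPM in sham rats, and 5 of 6 injured rats, at 39.4 to 41.8 CPM, lay above them. The remaining injured rat, UCLA TBI+ 1, had 30.1 CPM. The log2 fold changes at UCLA were 0.39 for miR-124-3p, 0.24 for miR-9a-3p and 0.58 for miR-124-5p.

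Whether the injury effect differed between sites was tested as an interaction, in which 7 miRNAs (0.932%) were called. The edgeR adjusted p was 0.284 for miR-9a-5p and for miR-124-5p, 0.716 for miR-9a-3p and 0.852 for miR-124-3p. A different injury effect by site was thus not shown for any of them. As for miR-9a-5p, the estimates of 5 red cell miRNAs were lowest at Monash: their median log2 fold change was 0.96, −0.37 and 1.15 at UEF, Monash and UCLA, and their part in the site values was not tested.

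The later outcome was compared among injured rats. miR-9a-3p was 54.8 to 127.4 CPM in TBI- (median 115.5) and 44.2 to 180.3 CPM in TBI+ rats (median 104.9). miR-9a-5p was 42.1 to 81.5 CPM in TBI- (median 68.2) and 41.5 to 110.4 CPM in TBI+ rats (median 84.5). miR-124-3p was 19.0 to 63.3 CPM (median 41.6) and 30.1 to 69.5 CPM (median 39.5), and miR-124-5p 8.65 to 22.7 CPM (median 16.4) and 7.78 to 31.96 CPM (median 19.7). The groups overlapped for all 4, and the highest rat was a TBI+ rat in each.

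Of 751 miRNAs 0 (0%) were called between TBI+ and TBI- rats in edgeR, 15 had unadjusted p below 0.05, and each member had an adjusted p of 0.998. The log2 fold change of TBI+ over TBI- was 0.14 for miR-124-3p (95% interval −0.27 to 0.54), 0.38 for miR-124-5p (−0.12 to 0.88), −0.03 for miR-9a-3p (−0.56 to 0.50) and 0.35 for miR-9a-5p (−0.11 to 0.80). For miR-9a-3p the interval comes close to the size of its TBI estimate in either direction. The intervals for miR-9b-3p (−0.45 to 2.30) and miR-9b-5p (−1.51 to 0.85) were wider.

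Set against the same sham rats, which both comparisons share, TBI- and TBI+ gave log2 fold changes of 0.62 and 0.60 for miR-9a-3p. The values were 0.37 and 0.72 for miR-9a-5p, 0.37 and 0.50 for miR-124-3p, and −0.19 and 0.18 for miR-124-5p. The lowest edgeR adjusted p among the members was 0.229, for miR-9a-5p in TBI+ rats. Called miRNAs numbered 1 (0.133%) for TBI- and 4 (0.533%) for TBI+.

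The pooled outcome contrast of miR-9a-3p joined sites that went opposite ways. At UCLA, miR-9a-3p was 118, 117 and 114.6 CPM in TBI- rats (288, 288 and 291 counts) and 44.2, 56.4 and 49.3 CPM in TBI+ rats (126, 120 and 115 counts), with sham rats between at 61.4, 76.1 and 73.8 CPM. At Monash it was 88.6, 54.8 and 83.5 CPM in TBI- rats and 138 and 103.9 CPM in TBI+ rats. So TBI+ rats lay below all TBI- rats at UCLA (3 against 3 rats) and above all of them at Monash (2 against 3 rats). The share of all miRNAs that separated in this way in such small groups was not counted.

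In a fit with 1 mean per site and condition, chosen after seeing the data, miR-9a-3p had a log2 fold change of TBI+ over TBI- of 0.29 (UEF), 0.67 (Monash) and −1.22 (UCLA, SE 0.39, edgeR adjusted p = 0.0541). The test of the difference between sites had an edgeR adjusted p of 0.0491, in a comparison that called 68 miRNAs (9.05%). At the single sites 0 (0%, 16 with unadjusted p below 0.05 in edgeR) were called at UEF, 58 (7.72%) at Monash and 49 (6.52%) at UCLA. At Monash the 9 libraries that stand apart include all TBI- rats and no TBI+ rat, and at UCLA all TBI+ rats and no TBI- rat, so outcome and library set cannot be told apart for this result. At UEF, which has none of these libraries, the interval was −0.38 to 0.96. The call by site was lost in 13 of 29 fits with 1 rat left out, with an adjusted p of up to 0.0954 without Monash TBI+ 1. The value at UCLA passed in 12 of the 29 fits, with an adjusted p of 0.0106 (without Monash sham 3) to 0.172 over all of them.

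miR-9a-5p did not follow its partner at UCLA. It was 51.3, 64.7 and 42.1 CPM in TBI- and 91.5, 90.2 and 81.4 CPM in TBI+ rats, with TBI+ above all TBI- rats (log2 fold change 0.73, 95% interval 0.03 to 1.44, edgeR adjusted p = 0.221). Here too the share of all miRNAs that separated was not counted. miR-9b-5p, the antisense partner of miR-9a-3p, had 17, 19 and 26 counts in TBI- and 0, 0 and 6 counts in TBI+ rats of UCLA (−3.24, SE 1.03, edgeR adjusted p = 0.0541). It passed without Monash sham 1, Monash sham 2 or Monash TBI- 2 (0.0285 to 0.0446) and without UCLA TBI+ 3 (0.00880), where the fitted −7.45 is set against 2 rats at 0 counts and is no bound. At Monash it had 3, 13 and 17 counts in TBI- and 12 and 28 counts in TBI+ rats. In UCLA TBI+ rats, miR-9a-3p and miR-9b-5p were thus both low while miR-9a-5p was high. Low miR-9b-5p was not particular to these rats. It had 0 to 17 counts (median 3, with 3 rats at 0) in the 9 libraries that stand apart. In the other 20 it had 9 to 37 counts (median 22.5, with 0 rats at 0), so outcome and library set cannot be told apart.

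The opposite course of the 2 arms can be read within each library, where scaling cancels, as the log2 ratio of 3p to 5p counts (0.5 added to each). For miR-9a it was 1.201, 0.86 and 1.44 in UCLA TBI- rats and −1.05, −0.68 and −0.72 in UCLA TBI+ rats, so the arm in excess changed. In Monash it was −1.03, −1.15 and 0.14 in sham, 0.59, −0.44 and 0.27 in TBI- and 0.77 and 1.32 in TBI+ rats. In the 12 UEF rats it stayed between 0.31 and 1.06.

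Over all rats the miR-9a ratio was mostly lower in the 9 libraries than in the others, with ranges that overlapped. It was −1.15 to 0.59 in the 9 libraries that stand apart, with 6 of 9 below 0, and 0.31 to 1.44 in the other 20, with none below 0. For miR-124 it was −0.57 to 1.12 in the 9 libraries (4 below 0) and 0.57 to 2.67 in the others (none below 0). The miR-124 ratio was lowest in Monash sham rats, at −0.53, −0.42 and −0.57, the only group of the 9 in which the 5p arm of miR-124 outnumbered the 3p arm in every rat.

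**Figure D3:**
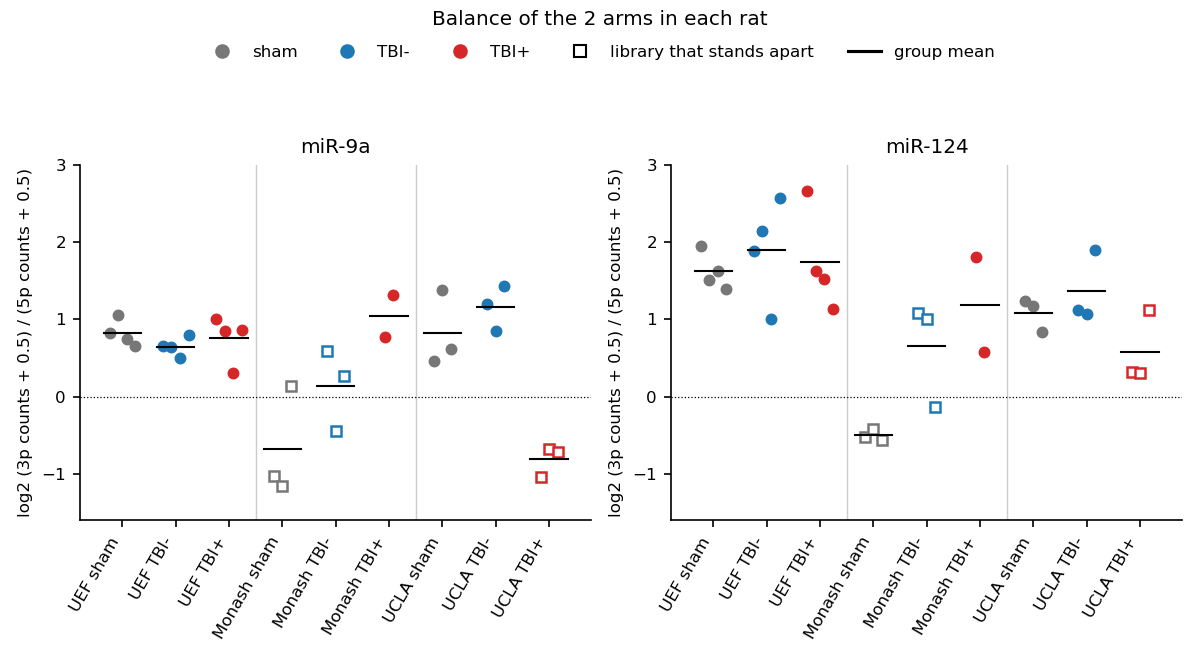
Log2 ratio of 3p to 5p counts (0.5 added to each) of miR-9a and miR-124 in each rat by site and condition; open squares are the 9 libraries that stand apart, lines the group means, and the dotted line marks equal arms. No rat outside the 9 libraries lies below 0 for either miRNA.

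In all, 10 comparisons of these ratios were made by two-sided exact permutation tests with Benjamini-Hochberg adjustment over the 10. For miR-124 the mean ratio was 1.76 ± 0.52 (SD, n = 12) at UEF, 0.35 ± 0.89 (n = 8) at Monash and 1.01 ± 0.49 (n = 9) at UCLA. UEF exceeded Monash by 1.40 (exact permutation adjusted p = 0.0031) and UCLA by 0.75 (0.0162). For miR-9a the means were 0.74 ± 0.21, 0.06 ± 0.87 and 0.39 ± 0.97, and UEF exceeded Monash by 0.68 (exact permutation adjusted p = 0.0427).

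Without the 9 libraries none of these 3 differences passed. For UEF and Monash, with 12 and 2 rats, only 91 exchanges exist. A pass after adjustment was then nearly out of reach, so these 2 tests cannot decide whether the differences remained. UEF minus Monash was 0.57 for miR-124 (exact permutation adjusted p = 0.495) and −0.30 for miR-9a (0.403), and UEF minus UCLA was 0.53 for miR-124 (0.396), with 2 Monash and 6 UCLA rats left. TBI minus sham was 0.48 for miR-124 (1.30 ± 0.75, n = 19, and 0.82 ± 0.96, n = 10, exact permutation adjusted p = 0.157) and 0.11 for miR-9a (0.746). TBI+ minus TBI- was −0.14 for miR-124 (0.604) and −0.35 for miR-9a (0.432). The remaining 3 comparisons, UEF with UCLA for miR-9a and Monash with UCLA for both, did not pass (exact permutation adjusted p of 0.395, 0.577 and 0.157), although Monash minus UCLA for miR-124 passed without Monash TBI+ 1 (−0.86, 0.0391).

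The study also asked whether the sites were comparable. Of the members, miR-124-5p alone was called between the 3 sites (edgeR adjusted p = 0.0383), where 110 miRNAs (14.6%) were called. The other members had adjusted p of 0.160 (miR-124-3p), 0.320 (miR-9a-3p), 0.525 (miR-9a-5p), 0.701 (miR-9b-3p) and 0.536 (miR-9b-5p). miR-124-5p was 7.78 to 24.2 CPM at UEF, 12.0 to 47.2 CPM at Monash and 11.03 to 31.96 CPM at UCLA. UEF was below Monash by −0.87 on the log2 scale (SE 0.25, 95% interval −1.37 to −0.37, edgeR adjusted p = 0.0277), a fold of 0.547, where 71 miRNAs (9.45%) were called.

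The site calls of miR-124-5p depended on the scaling and on few rats. With library totals or miR-28-3p in place of TMM, the edgeR adjusted p was 0.268 and 0.403 over the 3 sites and 0.181 and 0.283 for UEF against Monash. Over the 3 sites it was 0.0649 with upper-quartile factors, 0.551 in TBI rats alone, 0.719 without the 9 libraries and 0.618 with them as a term. The highest values were Monash sham 3 (47.2 CPM) and Monash sham 1 (37.6 CPM), both among the 9 libraries. Without either, the edgeR adjusted p of UEF against Monash was 0.0708 and 0.0604, and without all 9 the log2 fold change was −0.43 (0.994). With the 9 as a term it was −0.46 (0.557), and in TBI rats alone −0.43 (0.543). The call over 3 sites was lost without any 1 of 13 rats (adjusted p of 0.0512 to 0.110): UEF sham 1, 2 or 3, UEF TBI- 2 or 4, UEF TBI+ 1 or 3, Monash sham 1 or 3, Monash TBI- 1 or 3, UCLA sham 1 or UCLA TBI- 1. miR-124-3p was called over the 3 sites (0.0288) only without Monash TBI+ 1, its highest rat at 69.5 CPM.

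How the 4 miRNAs varied together was described over the 29 rats on log2 CPM, with 6 pairs and Benjamini-Hochberg adjustment over them (100000 permutations). The permutations exchanged all 29 rats without regard to site, condition or library set. These p-values therefore do not separate variation between rats from differences between those groups. The 3p arms of miR-124 and miR-9a, from different genes, went together with Pearson r = 0.71 (permutation p = 3.0e-05, adjusted p = 0.00018) and Spearman rho = 0.68 (permutation p = 0.00012, adjusted p = 0.00072). Without the 2 rats farthest from the median of miR-124-3p, r was 0.67. By site it was 0.64 (UEF), 0.73 (Monash) and 0.44 (UCLA), and it was 0.47 within the 9 libraries and 0.67 within the other 20. Centred within site and condition, r was 0.55.

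The 5p arms of both had r = 0.44 (permutation p = 0.0158, adjusted p = 0.0475) and rho = 0.40 (permutation p = 0.0345, adjusted p = 0.101). Without the 2 farthest rats r was 0.37, and it was 0.40, 0.42 and 0.77 at UEF, Monash and UCLA, 0.48 within the 9 libraries and 0.26 within the others. Centred within site and condition, r was 0.42. This pair passed by Pearson and not by Spearman.

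The 2 arms of 1 hairpin were less alike than the 3p arms over all 29 rats with TMM, but for miR-9a this order turned at UEF, within the 20 other libraries, and after centring within site and condition (0.66 for the arms of miR-9a, 0.55 for the 3p arms). The difference was not tested. For miR-9a-3p and miR-9a-5p, r was 0.31 (permutation p = 0.0979, adjusted p = 0.196) and rho 0.37, with 0.95 (UEF), 0.32 (Monash) and −0.51 (UCLA), and 0.85 within the 20 libraries. For miR-124-3p and miR-124-5p, r was −0.19 (permutation p = 0.332, adjusted p = 0.399) and rho −0.09, with 0.24, 0.03 and 0.24 at the sites. miR-124-3p with miR-9a-5p had r = 0.21 (permutation adjusted p = 0.399) and miR-124-5p with miR-9a-3p r = −0.14 (0.465). Dividing by library totals or by miR-28-3p in place of TMM made all 6 positive, at 0.38 to 0.87.

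**Figure D4:**
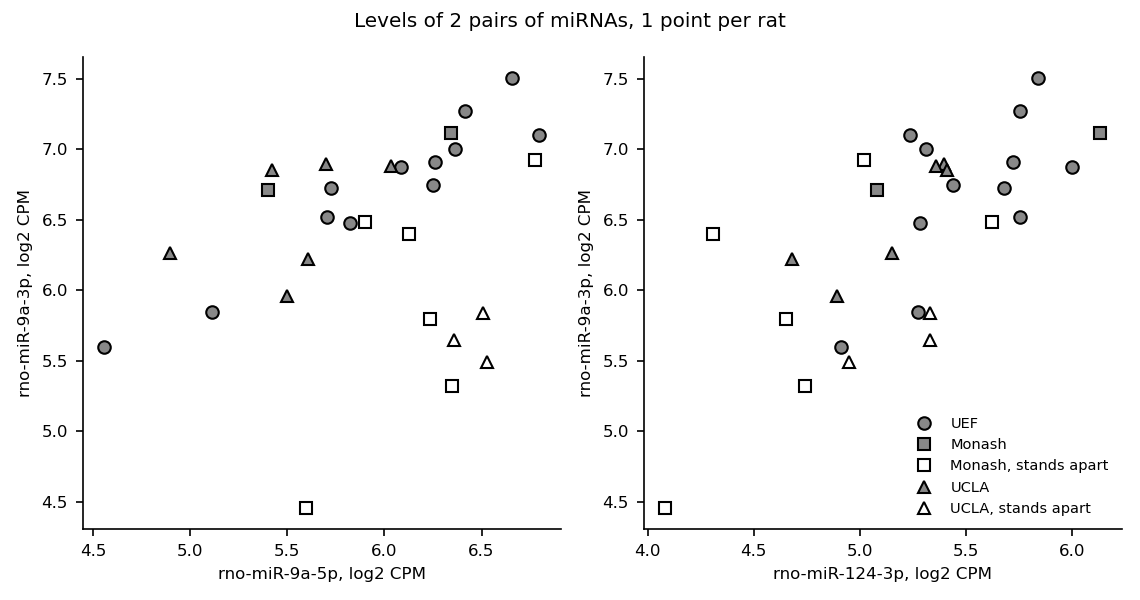
Log2 CPM of miR-9a-3p (y axis) against miR-9a-5p (left) and miR-124-3p (right), 1 point per rat, with symbols for site and open symbols for the 9 libraries that stand apart. On the left most open points lie below the line of the filled ones (r = 0.85 within the 20 filled), and on the right the sets run together (r = 0.71 over all rats).

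The miRNAs with the most similar pattern were ranked by Pearson r over the 29 rats among 587 others that reached 10 counts in all rats, as a description. For miR-9a-3p they were miR-129-3p (0.82), miR-129-5p (0.80) and miR-672-3p (0.72), and for miR-124-3p miR-129-3p (0.74), miR-9a-3p itself (0.71) and miR-137-3p (0.62). For miR-9a-5p they were miR-434-3p (0.80), miR-382-5p (0.75) and miR-341 (0.74), and for miR-124-5p miR-19b-2-5p (0.81), miR-2985 (0.76) and miR-3593-3p (0.69). Within the 20 libraries that do not stand apart, some of these values were much lower. In the same order they were 0.84, 0.88 and 0.38 for miR-9a-3p and 0.70, 0.67 and 0.46 for miR-124-3p. They were 0.87, 0.79 and 0.80 for miR-9a-5p and 0.79, 0.45 and 0.63 for miR-124-5p. The other arm of the same hairpin ranked 117 for miR-9a-3p, 69 for miR-9a-5p, 432 for miR-124-3p and 406 for miR-124-5p.

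The 3 nearest to miR-9a-5p are shown since they lie together, at chr6:134330451-134569977 (GRCr8), in the imprinted Dlk1-Dio3 region, and none has its seed.
rno-miR-434-3p: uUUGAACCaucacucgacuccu
rno-miR-382-5p: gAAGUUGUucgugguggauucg
rno-miR-341: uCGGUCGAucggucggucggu
The 35 measured miRNAs of that span had a median r of 0.13 with miR-9a-5p (range −0.36 to 0.80), against 0.01 over all 587. Their median r was higher with miR-9a-3p (0.24) and miR-124-5p (0.16), and 0.05 with miR-124-3p. The likeness to this span was thus not particular to miR-9a-5p. The 3 miRNAs shown, chosen as most similar to miR-9a-5p, set the ends of the span and are counted in it.

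Of 14 measured miRNAs of a list of other neuron-enriched miRNAs, 3 rose after TBI in edgeR, against 1.2% of all miRNAs, and 12 had a positive estimate. The list was drawn up with earlier results of these data known. miR-323-3p, from the same imprinted region, rose by 1.21 on the log2 scale (SE 0.20, edgeR adjusted p = 0.000683), miR-128-3p, an abundant miRNA of mature neurons, by 0.99 (SE 0.22, 0.0172), and miR-129-5p by 0.94 (SE 0.20, 0.0172). The list median was 0.27, below the estimates of the miR-9a arms and of miR-124-3p. Its summed level was 2998 to 9043 CPM in sham (median 4555) and 4507 to 16024 CPM in TBI rats (median 8984). Between TBI+ and TBI- rats 0 of the 14 were called. Without the 9 libraries the list median after TBI was 0.25, and 2 of the 14 were called, miR-323-3p (1.40, edgeR adjusted p = 0.00891) and miR-129-5p (1.17, 0.00891), with miR-128-3p at 0.996 (0.0687).

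Among markers of other sources, only liver miRNAs were called over all 29 rats. The 5 red cell miRNAs, led by miR-16-5p, all had positive estimates (median 0.62, none called), and their sum was 128680 to 459570 CPM in sham and 167651 to 632792 CPM in TBI rats. Of 3 liver miRNAs 2 fell, miR-122-5p by 1.65 and miR-194-5p by 1.52 on the log2 scale (edgeR adjusted p of 0.0473 and 0.0340). The median of the 3 was −2.79 at UEF (3 called lower), −0.86 at Monash and 0.16 at UCLA (none called at either). Without the 9 libraries all 3 were called lower (median −2.19), and 1 red cell miRNA, miR-486, higher (1.11, edgeR adjusted p = 0.0291, list median 0.58). The 4 white cell and platelet miRNAs (median 0.25), 3 oligodendrocyte (0.02), 3 muscle (0.45) and 2 neuroendocrine miRNAs (0.25) had none called, and no listed miRNA was at 0 in any rat. With the log2 ratio of miR-451 to miR-23a, a measure of hemolysis that ran from −3.57 to −0.87, as a term, the TBI estimate was 0.90 for miR-9a-3p (edgeR adjusted p = 0.203), 0.64 for miR-124-3p (0.203) and 0.52 for miR-9a-5p (0.655). The part of the liver miRNAs in these results was not tested.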

How the data were processed

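Plasma small RNA of 29 rats was analysed. Per the paper's methods the authors prepared libraries with unique molecular identifiers, trimmed reads with cutadapt, aligned them with Bowtie to Rnor_6.0 and used miRBase for annotation. The deposited table gives counts, whole numbers per miRNA without normalization. Whether reads of 1 molecule were merged is not stated, so the floors for rats without a count cover counting error only. The intervals of the fold changes come from the edgeR fit and include the spread between rats.

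Counts were filtered (filterByExpr, minimum 10), TMM-scaled and tested with edgeR 4.0.16 (quasi-likelihood F test, robust, condition and site in the model, Benjamini-Hochberg over 751 miRNAs, threshold 0.05, R 4.3.3). The sham, TBI- and TBI+ groups and sites came from the labels, and each sample was 1 rat, so that p-values measure the spread between rats. log2 CPM used a prior count of 2. Permutation tests were coded with numpy 2.4.6, and clustering used scipy 1.17.1. Libraries were clustered on 1 − Spearman rho (average linkage, 3 branches). Scripts were tested on simulated data. The members, the marker lists and the rule for named miRNAs (the members, called list members, and the 3 most similar miRNAs) were chosen with earlier results of these data known. The fit without the 9 libraries, the one with them as a term and the fit of 9 site and condition means were chosen after seeing the data. Alternatives were DESeq2 1.42.0, other scalings and filters, thinning, models without site, with a hemolysis ratio or a replicate block, sites and rats left out.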

Additional observations from a re-analysis of the deposited data

Results flagged for a closer look

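In groups of 4 to 10 rats, the highest or lowest value was marked where it lay farther from its neighbour than Dixon's test allows at the 95% level. Of 88 groups of the members 6 were marked, and chance alone marks about 1 in 20. rno-miR-124-3p was low in UCLA TBI+ 1 (30.1 CPM, against 39.4 to 41.8 CPM in the other UCLA TBI rats). rno-miR-124-5p was low in Monash TBI- 2 (12.0 CPM, against 19.7 to 22.7 CPM in the other Monash TBI rats). rno-miR-9b-3p was high in Monash TBI+ 2 at 20.9 CPM (50 counts), marked among TBI+ rats (others 2.03 to 8.38 CPM), Monash rats (0 to 6.55 CPM) and Monash TBI rats (1.10 to 6.55 CPM). It was also high in UCLA sham 3 (11.3 CPM, others at UCLA 0 to 5.64 CPM).

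The outcome contrast was flagged for a difference between sites in 3 cases, and a test of that difference passed for rno-miR-9a-3p only. For rno-miR-9a-3p the edgeR test of TBI+ against TBI- by site had an adjusted p of 0.0491. For rno-miR-9b-5p TBI+ minus TBI- was 5.71 CPM at Monash (9.55 and 3.85 CPM) and −7.46 CPM at UCLA (0.857 and 8.31 CPM), and the test of that difference was not past the threshold (edgeR adjusted p = 0.0773), though it passed without Monash sham 2 (0.0362) and without UCLA TBI+ 3 (0.00929), over a range of 0.00929 to 0.197 with 1 rat left out. The log2 ratio of miR-9a-3p to miR-9a-5p was higher in TBI+ than TBI- rats at Monash by 0.91 (1.05 and 0.14) and differed by −1.98 at UCLA (−0.82 and 1.17), a difference between sites that was not tested. The 6 Monash sham and TBI- and the 3 UCLA TBI+ libraries are the 9 that stand apart, so outcome and library set cannot be told apart in all 3 cases.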

How the results depend on the processing

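Over 47 alternatives the TBI estimate stayed positive for miR-124-3p (log2 0.29 to 0.64), miR-9a-3p (0.41 to 0.90) and miR-9a-5p (0.24 to 0.88). miR-124-3p passed an adjusted p of 0.05 in 0 of them, miR-9a-3p in 1 (without the 9 libraries) and miR-9a-5p in 2 (without the 9 libraries, and without Monash, 0.0152), so the members called after TBI went from 0 to 2 and 1. The cause of each change was not tested. A filter at 100 counts left miR-124-5p untested. Depth limits mainly miR-9b and miR-124-5p.

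miRNAs called between TBI and sham went from 9 to 24 with DESeq2, 4 with the hemolysis ratio, 0 without UEF (edgeR; the 3 sites separately are in the report), 21 without Monash, 15 without UCLA, 30 without the 9 libraries, 18 with them as a term, and 5 to 16 with 1 rat left out (5 without UEF sham 2 or 3, 16 without Monash sham 2). Between UEF and Monash 71 became 33 with library totals, 21 with miR-28-3p, 110 with DESeq2, 44 with the filter at 100 counts, 38 in sham rats, 0 in TBI rats, 0 without the 9 libraries and 0 with them as a term, and 35 to 117 with 1 rat left out. Over the 3 sites 110 became 60 in sham rats, 38 in TBI rats and 43 without the 9 libraries. The injury effect by site gave 15 calls with library totals, 17 with DESeq2 and 3 with the 9 libraries as a term in place of 7, and 0 to 10 with 1 rat left out. At UEF 29 became 46 with totals and 14 to 57 with 1 rat left out. Same-numbered rats did not deviate together (103 pairs, correlations −0.42 to 0.40), so the numbers do not pair them. With the replicate block, 5 miRNAs were called after TBI, 30 between UEF and Monash and 0 by site, miR-124-5p was at 0.00713 and miR-9b-5p at 0.00993 after TBI, miR-9a-5p at UEF had an adjusted p of 0.0558, and miR-124-5p over the 3 sites one of 0.0579.

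Estimates near 0 changed sign. After TBI, miR-124-5p was at 0.0446 with totals, 0.0242 with miR-28-3p, 0.10 with the hemolysis ratio, 0.36 without Monash, 0.19 without the 9 libraries and −0.0639 to 0.12 with 1 rat left out. miR-9b-3p was at −0.11 without Monash, −0.41 without the 9 libraries and −0.0507 to 0.76 with 1 rat left out. miR-9b-5p was at 0.0563 without the site term, 0.37 with the hemolysis ratio, 0.45 without UCLA, 0.0611 without the 9 libraries, 0.0371 as a difference in mean log2 CPM and −0.19 to 0.13 with 1 rat left out. For TBI+ against TBI-, miR-9a-3p was at 0.17 with totals, 0.21 with miR-28-3p, 0.0308 with the filter at 100 counts, 0.0487 without the site term, 0.0475 thinned, 0.46 without UCLA, 0.28 without the 9 libraries and −0.13 to 0.11 with 1 rat left out. miR-124-3p was at −0.0758 without Monash, −0.0545 without the 9 libraries and −0.0415 to 0.21 with 1 rat left out, and miR-9b-5p at 0.0174 thinned and 0.43 without UCLA. The test of miR-9a-3p by site was lost without UEF TBI- 1 or 3, UEF TBI+ 2 or 4, Monash TBI- 2, Monash TBI+ 1 or 2, UCLA sham 2 or 3, UCLA TBI- 2 or 3, or UCLA TBI+ 1 or 3 (adjusted p of 0.0512 to 0.0954).

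Without the 9 libraries the arm ratio of miR-9a was −0.25 for UEF minus UCLA, −0.30 for UEF minus Monash and 0.0530 for Monash minus UCLA, and that of miR-124 0.57 and 0.53 for UEF minus Monash and UCLA. Thinned to the lowest total, UEF minus Monash was 0.57 for miR-9a, no longer past the threshold, and TBI+ minus TBI- was 0.0606 for miR-124. With 1 rat left out, UEF minus Monash was 0.51 to 0.86 for miR-9a (adjusted p of 0.00456 to 0.120), Monash minus UCLA −0.86 to −0.53 for miR-124 (a call at −0.86, without Monash TBI+ 1), and TBI minus sham −0.0563 to 0.23 for miR-9a. The correlation of miR-124-3p and miR-124-5p was 0.41 with totals, 0.38 with miR-28-3p and 0.29 centred within site and condition. That of miR-124-5p and miR-9a-3p was 0.40, 0.38 and 0.56 in the same order, that of miR-9a-3p and miR-9a-5p 0.65, 0.65 and 0.66, and that of miR-124-3p and miR-9a-5p 0.61 with totals and 0.61 with miR-28-3p.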
